A study of Mus musculus with 21 samples.

Results

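Peroxisome genes were followed across 6 groups of mouse stomach corpus cells profiled on 21 microarrays. The set was a list of 31 genes for the peroxins, which build the organelle, and for enzymes and transporters that work in it. Each gene was represented by the probe set whose annotation names that gene alone, taking the brightest over the 21 arrays where there was more than 1. This gave 30 measured members among 22180 genes tested. Prdx5 was not matched. The list was drawn up because Cat and Gstk1 were lower after tamoxifen in every population, so the tamoxifen values of the members are given as a description with no p-values, and counts of calls stand only beside the share of all genes, with nothing read from them.

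The cells came from mice whose Lgr5 gene reports its activity with green fluorescent protein (Lgr5GFP), and were separated by flow cytometry into high, low and negative populations. Lgr5 marks a subset of chief cells at the base of the corpus gland. Treated mice had received tamoxifen 24 hours before isolation, at a dose of 0.27 mg per g, and the labels call their samples injured. This treatment has 4 arrays per population. Control mice were not injected, with 3 arrays per population. No vehicle-injected group was used, so effects of the drug, of injecting and of the run cannot be told apart. All 6 groups share the Lgr5GFP allele. Age, sex and background strain are not given in the sources used here. Per the labels the replicates were technical ones from individual sorting runs, so p-values measure only the spread between these samples. The source name of the control negative arrays reads low, whereas their titles and population entries read negative, and they were placed by their titles.

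Peroxisomes are small organelles bounded by a single membrane that oxidise very long-chain, branched and dicarboxylic fatty acids and bile acid precursors. Their oxidases pass electrons straight to oxygen and so make hydrogen peroxide, which catalase breaks down inside the organelle. Peroxins insert the membrane proteins, import folded enzymes from the cytosol and divide the organelle, and many of the enzymes are known targets of the nuclear receptor PPARA. In the corpus, the acid-secreting parietal cell burns fatty acids for energy, whereas chief cells are packed with secretory granules.

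The promoters of Cat, Gstk1, Phyh and Scp2 are shown because most of the differences described turn on these 4 genes, which were picked after their values were seen. Sequences are RefSeq's for build GRCm38.p6, from 250 bases before to 50 after the annotated start, in the 5′ to 3′ direction of the gene. Capitals mark every match, on either strand, to the nuclear receptor half-site AGGTCA, the GC box GGGCGG or the CCAAT box CCAAT. The Cat promoter is at chr2:103485104-103485403 on the minus strand and Gstk1 at chr6:42245685-42245984 on the plus strand. Phyh is at chr2:4918746-4919045 on the plus strand and Scp2 at chr4:108118498-108118797 on the minus strand.
Cat: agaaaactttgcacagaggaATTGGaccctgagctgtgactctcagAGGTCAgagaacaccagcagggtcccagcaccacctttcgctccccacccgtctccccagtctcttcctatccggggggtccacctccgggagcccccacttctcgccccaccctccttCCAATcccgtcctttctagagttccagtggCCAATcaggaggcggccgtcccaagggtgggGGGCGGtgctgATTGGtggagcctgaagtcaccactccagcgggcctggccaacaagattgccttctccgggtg
Gstk1: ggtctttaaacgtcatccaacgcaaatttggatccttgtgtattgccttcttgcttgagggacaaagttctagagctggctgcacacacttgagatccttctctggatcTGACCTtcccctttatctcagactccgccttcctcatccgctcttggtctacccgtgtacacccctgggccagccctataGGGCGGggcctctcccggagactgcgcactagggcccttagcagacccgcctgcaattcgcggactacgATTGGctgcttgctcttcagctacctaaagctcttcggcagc
Phyh: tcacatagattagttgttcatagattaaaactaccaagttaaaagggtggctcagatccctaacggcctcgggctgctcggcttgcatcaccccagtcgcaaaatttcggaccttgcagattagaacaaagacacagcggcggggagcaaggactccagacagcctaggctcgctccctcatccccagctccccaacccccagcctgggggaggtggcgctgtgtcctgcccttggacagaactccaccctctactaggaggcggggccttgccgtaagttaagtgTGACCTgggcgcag
Scp2: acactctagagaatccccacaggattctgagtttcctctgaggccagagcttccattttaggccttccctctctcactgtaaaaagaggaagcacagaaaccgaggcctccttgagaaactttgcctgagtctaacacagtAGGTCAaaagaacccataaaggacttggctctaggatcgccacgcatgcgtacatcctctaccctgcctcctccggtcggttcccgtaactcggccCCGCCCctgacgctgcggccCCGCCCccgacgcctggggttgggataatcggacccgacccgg
Each of these 4 windows holds 1 AGGTCA match. The Cat window also has 1 GC box and 4 CCAAT matches, Gstk1 has 1 of each, Scp2 has 2 GC boxes, and Phyh has neither. The window of Ehhadh, marked in the same way but not shown, has 0 AGGTCA matches, 2 GC boxes and 1 CCAAT match. The shared AGGTCA match is therefore not read as a trait of the genes described.

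Promoter entries existed for 24 of the 30 measured members, 29 promoters in all. AGGTCA was found in 5 of the 29 (17.2%), those of Cat, Gstk1, Pex11g, Phyh and Scp2, against 16.3% of the 32851 promoters in the table. The direct repeat AGGTCANAGGTCA, bound by PPAR, was in none of the 29 and in 0.0396% of all promoters. The estrogen response element GGTCANNNTGACC was in none and in 0.07% of all, and the ERR element TCAAGGTCA, which contains AGGTCA, was in none and in 0.423%. A GC box was found in 19 of 29 (65.5%) against 35.7%, and CCAAT in 12 (41.4%) against 37.4%. Member promoters had a median GC content of 57.3%, all promoters 52.7%. These are letter matches and not tested binding sites.

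Levels are log2 signals, on which a difference of 1 is a doubling, and levels of different genes are not compared because each probe set has its own brightness. As a guide to background, the 95th percentile of 1105 olfactory receptor genes over all arrays was 4.25, and 28 of the 30 members had a mean above it. The exceptions were Abcd2, with group means from 2.65 to 2.98, and Acaa1b, from 3.01 to 3.61. Acaa1a and Acaa1b are near-identical copies, so the Acaa1a probe set may read both. The Acaa1b probe set stayed at background in all 6 groups, where the Acaa1a probe set was above it. Lgr5 itself followed the sorting gates, at 8.40 to 9.15 on control high, 7.48 to 7.71 on control low and 4.06 to 4.82 on control negative arrays. After tamoxifen Lgr5 was 8.05 to 8.74, 6.49 to 7.01 and 4.42 to 4.81, so the tamoxifen low arrays lay below the control low arrays. Chief cell markers (10 genes) had means of 8.34 to 9.19, 8.97 to 9.11 and 7.59 to 7.73 on control high, low and negative arrays. With tamoxifen these were 8.20 to 8.55, 8.0 to 8.27 and 7.33 to 7.5, and 1, 3 and 0 of the 10 genes were called lower. Lgr5, whose reporter set the sorting gates, is among these 10 genes. Differences of this list between populations were therefore partly set by the sorting.

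Markers of other cell types moved between the groups. The mean of the 12 parietal cell markers was 7.01 to 7.19 on control high, 8.46 to 8.93 on control low and 7.46 to 7.88 on control negative arrays. With tamoxifen it was 6.04 to 6.66, 7.05 to 7.65 and 6.35 to 7.24, and 4, 7 and 4 of the 12 genes were called lower in high, low and negative cells. The proton pump subunit Atp4b went from group means of 9.56, 12.43 and 10.90 in control high, low and negative cells to 6.12, 10.49 and 8.53. Tuft cell markers, 7 of 9 measured, had means of 10.44 to 11.13, 8.51 to 9.92 and 6.75 to 7.98 on control high, low and negative arrays. With tamoxifen these were 7.73 to 10.47, 5.21 to 6.91 and 5.74 to 6.75, and all 7 were called lower in low cells. Endocrine markers (8 genes) were 8.15 to 9.32 on control negative and 9.28 to 11.01 on tamoxifen negative arrays, and 8.02 to 9.77 on control low and 6.10 to 8.64 on tamoxifen low arrays. Surface pit cell markers (5 genes) had means of 7.57 to 8.89, 8.25 to 9.20 and 11.89 to 11.95 on control high, low and negative arrays, and of 6.39 to 8.49, 9.20 to 10.04 and 11.31 to 11.72 with tamoxifen. Mucous neck cell markers (5 genes) went from 9.94 to 11.93, 10.74 to 11.63 and 10.89 to 11.30 in the control groups to 9.51 to 11.29, 8.64 to 10.22 and 8.62 to 9.62 with tamoxifen. Mast cell markers (6 genes) were above background mainly in negative cells, at 5.76 to 6.59 in control and 4.06 to 5.11 in tamoxifen mice. The endothelial list was mostly at background, with 4 to 6 of its 6 genes there in each group, and none of the 5 erythroid genes was measured. Of 9 immune and 9 fibroblast and smooth muscle genes, 4 to 7 of each were at background in each group. Immune genes had 1 called higher and 1 lower with tamoxifen in low cells, and 1 higher in negative cells. Against negative cells, 1 immune gene was called higher and 2 lower in high cells of either treatment, and 2 lower in control low cells. In sorted bulk samples, fewer cells of a type and less RNA per cell cannot be told apart.

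**Figure D1:**
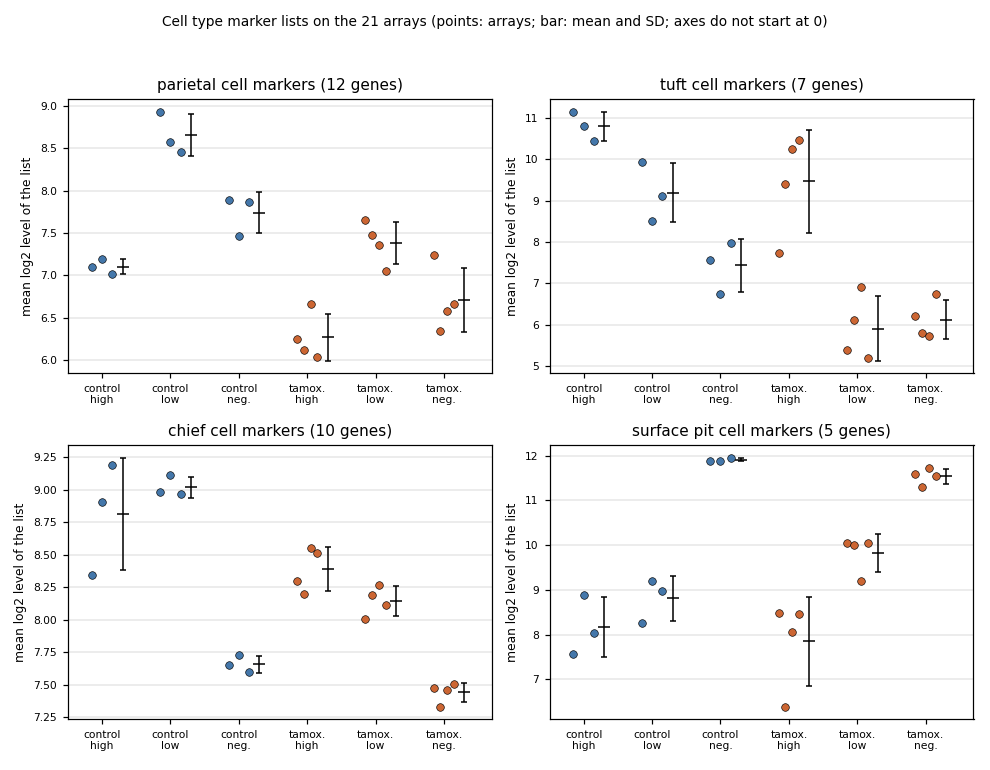
Mean log2 level of the parietal cell (12 genes), tuft cell (7), chief cell (10) and surface pit cell (5) marker lists on each array, by group. Points are arrays, blue for control and orange for tamoxifen, bars are the group mean and SD, and axes do not start at 0. Parietal markers are highest on the control low arrays (8.46 to 8.93) and tuft markers on the control high arrays (10.44 to 11.13). The chief cell list includes Lgr5, the gene of the sorting reporter.

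Cat and Gstk1, the pair that defined the set, were lower after tamoxifen in all 3 populations. Cat encodes catalase, which breaks down hydrogen peroxide. On control arrays Cat was 8.88, 8.52 and 9.12 in high cells, 9.36, 9.30 and 9.29 in low cells, and 8.89, 8.68 and 8.85 in negative cells. On tamoxifen arrays it was 7.98, 8.0, 8.27 and 8.32 in high cells, 7.97, 8.44, 8.36 and 8.23 in low cells, and 7.75, 7.68, 7.72 and 7.68 in negative cells. In no population did a tamoxifen array reach the lowest control array. The differences were -0.70 in high, -1.07 in low and -1.10 in negative cells (SE 0.15 each), or 1.62-, 2.09- and 2.14-fold lower.

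Gstk1 encodes the kappa-class glutathione transferase, found in peroxisomes and mitochondria. Its control levels were 7.12, 7.37 and 7.83 in high cells, 8.15, 8.26 and 8.28 in low cells, and 8.24, 8.27 and 8.33 in negative cells. Tamoxifen levels were 6.74, 6.19, 6.41 and 6.07 in high cells, 7.01, 7.15, 6.89 and 6.66 in low cells, and 7.39, 7.43, 7.55 and 7.47 in negative cells. Again the groups did not overlap in any population. The differences were -1.09, -1.30 and -0.82 (SE 0.17), or 2.12-, 2.46- and 1.77-fold lower in high, low and negative cells. Marker lists differed with tamoxifen in the same populations. Parietal markers had medians of -0.47, -1.44 and -0.86 in high, low and negative cells. Mucous neck markers had 0, 2 and 3 of 5 called lower, with medians of -0.41, -1.94 and -1.84, and tuft markers 0, 7 and 0 of 7, with medians of -1.17, -3.30 and -1.21. Endocrine markers had 3 of 8 called lower in low cells (median -2.01) and 1 called higher in negative cells (median 1.83), and 1 of 5 pit markers was called higher in low cells (median 1.06). Mast cell markers had 4 of 6 called lower in negative cells (median -1.68) and 1 in low cells (median -0.19). The part of these cell types in the Cat and Gstk1 values was not tested.

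**Figure D2:**
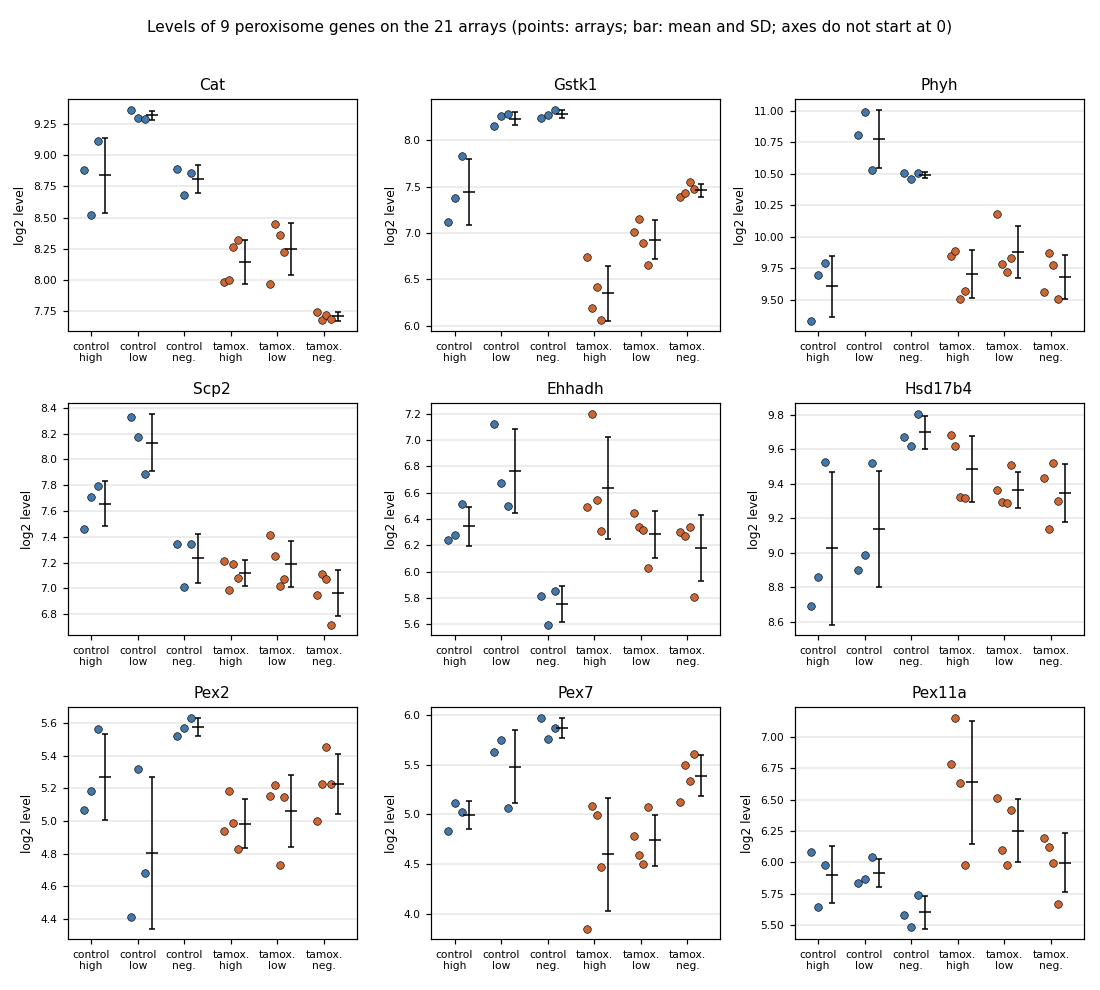
Log2 level of 9 members on the 21 arrays, by group. Points are arrays (blue control, orange tamoxifen), bars are the group mean and SD, and axes do not start at 0. All tamoxifen points of Cat and Gstk1 lie below the control points of the same population, and Phyh is lowest among control cells on the high arrays (9.34 to 9.79).

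Over all 30 members, Cat and Gstk1 included, the tamoxifen difference had medians of -0.10, 0.05 and -0.06 in high, low and negative cells, against 0.00, 0.01 and 0.00 for all genes. By the rule used throughout for a call, an adjusted p under 0.05 over all genes, 2 of 30 members were called in high cells (2.73% of all genes), 5 in low cells (8.32%) and 3 in negative cells (2.32%). Cat and Gstk1 were both of the calls in high cells. The others were Phyh and Scp2, lower, and Acox2, higher, in low cells, and Phyh, lower, in negative cells. Groups did not overlap for 5, 12 and 11 members, against 10.4%, 21.2% and 15.3% of all genes. These counts include Abcd2 and Acaa1b, which were at background. Because the set was chosen on this contrast, nothing is read from the counts.

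Enzymes of fatty acid oxidation went both ways. Phyh, which starts alpha-oxidation of phytanic acid, was 10.81, 10.99 and 10.53 on control low arrays and 10.18, 9.78, 9.72 and 9.83 on tamoxifen low arrays. In negative cells it was 10.51, 10.46 and 10.50 against 9.57, 9.87, 9.78 and 9.51, and in high cells 9.34, 9.70 and 9.79 against 9.85, 9.89, 9.51 and 9.57. The tamoxifen and control groups were apart in low and negative cells, by -0.90 and -0.81, and overlapped in high cells, where the difference was 0.09 (SE 0.16 each). Hacl1, which acts after Phyh in the same pathway, differed by 0.02, -0.02 and -0.27.

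Scp2, whose long form is the thiolase for branched-chain acyl-CoA, was 7.46, 7.71 and 7.79 in control high, 8.33, 8.18 and 7.89 in control low and 7.34, 7.02 and 7.34 in control negative cells. Tamoxifen arrays read 7.21, 6.99, 7.19 and 7.08 in high, 7.41, 7.25, 7.02 and 7.07 in low, and 6.95, 7.11, 7.07 and 6.72 in negative cells. The differences were -0.54, -0.94 and -0.27 (SE 0.15), without overlap in high and low cells and with overlap in negative cells.

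Acox2, the branched-chain oxidase of bile acid synthesis, was on the higher side after tamoxifen. Control low arrays were at background, at 3.66, 3.87 and 4.08, and tamoxifen low arrays read 6.15, 6.16, 4.32 and 5.62. That is at least 2.49-fold higher in low cells. In high cells the control arrays were 4.14, 4.05 and 3.84 and the tamoxifen arrays 4.21, 5.22, 4.71 and 4.53, also apart. In negative cells 3.81, 4.37 and 4.56 overlapped with 5.47, 5.37, 5.16 and 4.13. Acox3, another acyl-CoA oxidase, differed by 0.37, 0.83 and 0.02 (SE 0.27) and did not overlap in low cells.

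The bifunctional enzymes, which carry out the middle steps of peroxisomal beta-oxidation, had no common direction. Ehhadh was 6.24, 6.28 and 6.52 in control high, 7.12, 6.67 and 6.50 in control low and 5.82, 5.60 and 5.85 in control negative cells. With tamoxifen it was 6.49, 7.20, 6.55 and 6.31 in high, 6.45, 6.34, 6.32 and 6.03 in low, and 6.30, 6.27, 6.34 and 5.81 in negative cells. The differences were 0.29, -0.48 and 0.43 (SE 0.20), and only in low cells were the groups apart. Hsd17b4 was 8.69, 8.86 and 9.53 in control high, 8.90, 8.99 and 9.52 in control low and 9.67, 9.62 and 9.81 in control negative cells. With tamoxifen Hsd17b4 was 9.68, 9.62, 9.32 and 9.32, then 9.36, 9.29, 9.29 and 9.51, then 9.44, 9.14, 9.52 and 9.30 in the same order. Its differences were 0.46, 0.23 and -0.35 (SE 0.19), with the groups apart in negative cells alone.

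The remaining oxidation enzymes and transporters above background differed by between -0.55 and 0.23 in each population. Pecr, the trans-2-enoyl-CoA reductase, differed by -0.55, -0.44 and -0.37 (SE 0.22), and the racemase Amacr by -0.45, -0.12 and -0.29 (SE 0.23). Carnitine acetyltransferase, Crat, differed by 0.23, -0.30 and 0.15 (SE 0.18), and the isomerase Ech1 by 0.07, 0.21 and 0.15 (SE 0.16). The thiolase gene Acaa1a differed by -0.14, 0.03 and -0.31, while Acaa1b, like Abcd2, was at background in all 6 groups and is given no difference. The fatty acyl transporter Abcd3 differed by -0.09, -0.17 and -0.20. Of these, groups were apart for Crat and Abcd3 in low cells and for Pecr and Acaa1a in negative cells.

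Among the 13 peroxins, Pex14, Pex3, Pex11a and Pex6 were on the higher side in all 3 populations and Pex7 on the lower side. Pex14, part of the docking complex for matrix import, differed by 0.58, 0.47 and 0.58 (SE 0.19) and did not overlap in high and low cells. Pex3, the membrane anchor for the chaperone of membrane proteins, differed by 0.45, 0.81 and 0.36 (SE 0.26), apart in low and negative cells. Pex11a, which elongates the membrane before division, was 6.08, 5.64 and 5.98 in control high cells and 6.79, 7.15, 6.63 and 5.98 in tamoxifen high cells. Pex11a was 5.83, 5.87 and 6.04 against 6.51, 6.10, 5.98 and 6.42 in low cells, and 5.57, 5.48 and 5.74 against 6.20, 6.12, 6.0 and 5.67 in negative cells. The differences of 0.74, 0.34 and 0.40 (SE 0.22) came with overlapping groups in each population.

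Pex7, the receptor for enzymes with the second kind of peroxisomal targeting signal, was 4.84, 5.12 and 5.03 in control high, 5.63, 5.75 and 5.06 in control low and 5.97, 5.77 and 5.88 in control negative cells. Tamoxifen values were 3.85, 5.08, 4.99 and 4.47 in high, 4.79, 4.59, 4.50 and 5.07 in low, and 5.13, 5.49, 5.34 and 5.61 in negative cells. Its differences were -0.40, -0.74 and -0.48 (SE 0.24), and the groups were apart in negative cells. Pex2, a ring-finger ubiquitin ligase that recycles the import receptor, was 5.07, 5.18 and 5.57, then 4.41, 5.32 and 4.68, then 5.52, 5.57 and 5.63 in control high, low and negative cells. Tamoxifen arrays of Pex2 read 4.94, 5.18, 4.99 and 4.83, then 5.15, 5.22, 4.73 and 5.14, then 5.00, 5.23, 5.45 and 5.23. Its differences were -0.29, 0.26 and -0.35 (SE 0.20), apart in negative cells alone.

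The other peroxins differed by between -0.35 and 0.47 in each population. The import receptor Pex5 differed by 0.20, -0.15 and 0.19, its recycling ATPase Pex6 by 0.22, 0.28 and 0.26, and the anchor of that ATPase, Pex26, by -0.35, 0.07 and 0.34. The ligase Pex10 differed by 0.02, -0.18 and -0.19 and the docking protein Pex13 by -0.11, 0.28 and -0.07. The membrane assembly genes Pex16 and Pex19 differed by -0.12, 0.47 and 0.33 and by -0.25, -0.23 and 0.21, and the division gene Pex11g by -0.11, 0.13 and -0.25. Groups were apart for Pex19 in low cells and for Pex11g in negative cells.

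**Figure D3:**
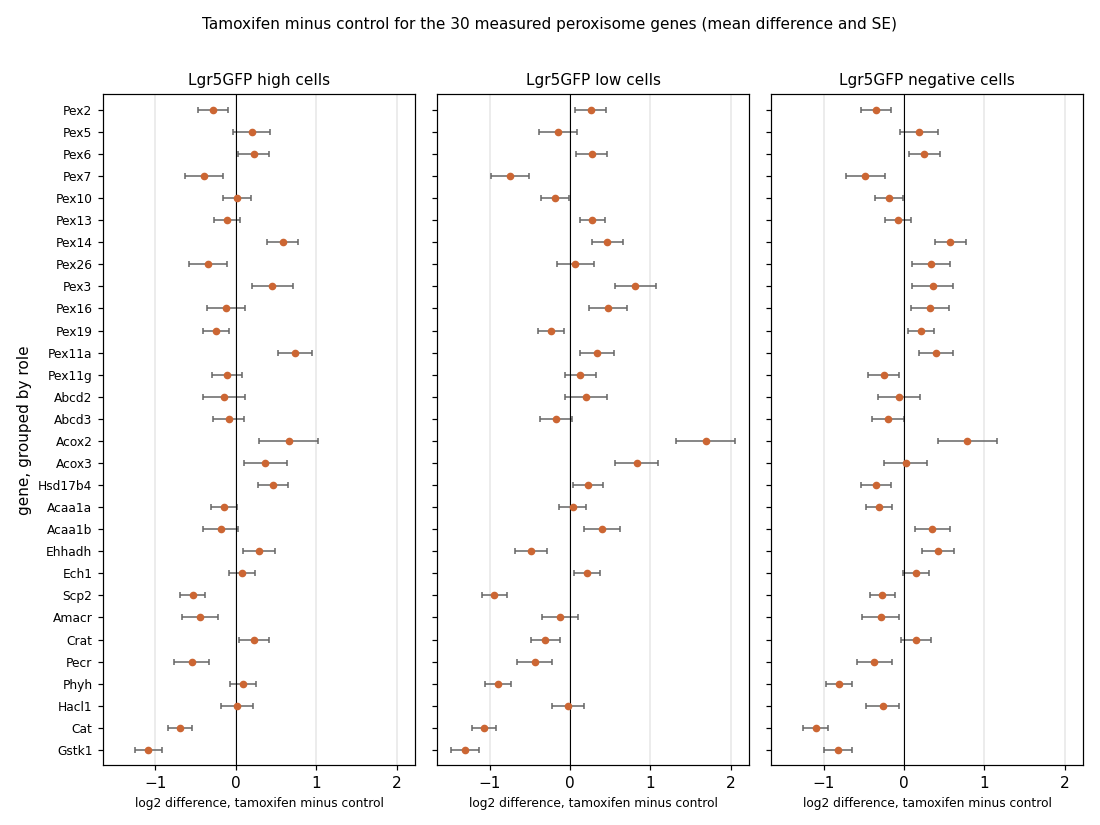
Log2 difference, tamoxifen minus control, of the 30 measured members in Lgr5GFP high, low and negative cells, ordered by role. Points are differences of group means and bars are the SE of the fit. Cat (-0.70, -1.07 and -1.10) and Gstk1 (-1.09, -1.30 and -0.82) lie farthest to the left in each panel. Abcd2 and Acaa1b were at background in every group and Acox2 in control high and low cells, so their points do not measure a size.

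Comparisons between populations did not enter the choice of the set and were tested. They share arrays, since each population is in 2 of 3 pairs. In control mice, high cells had 4 of 30 members called against negative cells, all lower in the main fit (12.3% of all genes called). Gstk1 was 1.79-fold lower (log2 difference -0.84 ± 0.18 SE, limma adjusted p = 0.00363) and Phyh 1.84-fold lower (-0.88 ± 0.17, adjusted p = 0.00148). Both calls held when any single array was left out, and the groups did not overlap. Marker lists differed in this pair as well. Parietal markers had 5 of 12 called lower and 1 higher (median -1.12), endocrine 5 of 8 lower (-3.02), pit 5 of 5 lower (-4.16) and mast cell 4 of 6 lower and 1 higher (-2.73). Tuft markers had 6 of 7 called higher (3.45), chief cell 6 of 10 higher and 1 lower (1.18) and mucous neck 1 of 5 higher (-0.59). Here and in the pairs below, the chief cell list includes Lgr5, the gene of the sorting reporter. The part of these cell types in the results of this pair was not tested.

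Pex7 and Hsd17b4 were the other calls between control high and control negative cells, and both were less stable. Pex7 fell by 0.88 (SE 0.26, limma adjusted p = 0.0258) and was no longer called without control high 1 (adjusted p = 0.106), control high 3 (0.0536), control negative 1 (0.0921), control negative 2 (0.0513) or control negative 3 (0.0766). Hsd17b4 differed by -0.67 ± 0.20 (limma adjusted p = 0.0302). Its call was lost without control high 1 (difference -0.50, adjusted p = 0.189), control high 2 (0.125), control negative 1 (0.0754), control negative 2 (0.0594) or control negative 3 (0.119). It was lost under cyclic loess normalization (-0.51, adjusted p = 0.0717) and with only the groups compared in the fit (limma adjusted p = 0.071) as well. Without any 1 of the 3 control negative arrays the count of called members was 2. All genes called were then 1941, 2080 and 1851, against 2728 with all arrays. Outside the calls, Pex26 differed by 0.77 ± 0.25, Hacl1 by -0.58 ± 0.22, Abcd3 by -0.54 ± 0.21 and Ehhadh by 0.59 ± 0.21, each without overlap. Other settings called some members higher. Under cyclic loess Ehhadh, Pex26 and Scp2 were higher in high cells (limma adjusted p = 0.0163, 0.0256 and 0.0209). With only the groups compared, Ehhadh and Pex26 were called higher and Hacl1 lower. Pex26 was called higher with averaged probe sets and without the dimmest genes too. Abcd3 was called lower with the sorting run as a block. In all, 16 of 30 members did not overlap, 8 above and 8 below in high cells, against 33.4% of all genes. The member median of 0.01 lay beside 0.04 for all genes.

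Control low cells had higher Scp2 and Ehhadh and lower Pex2 than control negative cells, 3 of 30 members (5.27% of all genes called). Scp2 differed by 0.90 ± 0.16 (limma adjusted p = 0.00248), 1.86-fold, and stayed called in every fit with 1 array left out. Ehhadh differed by 1.01 ± 0.21 (limma adjusted p = 0.00713), 2.01-fold, with all 3 low arrays (6.50 to 7.12) above all 3 negative arrays (5.60 to 5.85). The Ehhadh call was lost without control low 1 (0.83, adjusted p = 0.0669). Pex2 differed by -0.77 ± 0.20 (limma adjusted p = 0.0285). That call was lost without control low 1 (-0.58, adjusted p = 0.212), control low 3 (0.0819), control negative 1 (0.081), control negative 2 (0.0858) or control negative 3 (0.111). It was lost with only the groups compared in the fit as well (limma adjusted p = 0.0661). The count of called members was 1 without control low 1, where 437 of all genes were called, against 1168 with all arrays. In this pair parietal markers had 4 of 12 called higher (median 1.06), chief cell 6 of 10 (1.59) and tuft 3 of 7 (1.87), pit markers 5 of 5 called lower (-3.31) and mast cell 4 of 6 lower (-2.68). No endocrine or mucous neck marker was called (medians 0.45 and -0.18), and the part of these cell types in the results was not tested. Cat, at 0.51 ± 0.16, and Crat, at 0.60 ± 0.20, were not called although their groups did not overlap. The member median was 0.08 against 0.03 for all genes, and 15 members did not overlap against 27.1% of all genes.

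Between control high and control low cells Phyh and Gstk1 were called, both lower in high cells (1.34% of all genes called). Phyh differed by -1.16 ± 0.17 (limma adjusted p = 0.00142), 2.24-fold, and stayed called in every fit with 1 array left out. Gstk1 differed by -0.79 ± 0.18 (limma adjusted p = 0.033). This call was lost without control high 1 (-0.63, adjusted p = 0.283), control high 2 (0.107), control low 1 (0.0603), control low 2 (0.143) or control low 3 (0.108), and the count of called members was then 1. In those fits 77, 164, 251, 94 and 210 of all genes were called, against 297 with all arrays. With only these groups in the fit the adjusted p of Gstk1 in limma was 0.139. Parietal markers had 6 of 12 called lower in high cells (median -1.58), endocrine 5 of 8 lower (-3.37) and chief cell 1 of 10 higher (-0.16). No tuft, pit, mucous neck or mast cell marker was called (medians 1.57, -0.61, -0.25 and -0.05), and the part of these cell types in the results was not tested. Scp2 at -0.47 ± 0.16 and Cat at -0.48 ± 0.16 were not called and did not overlap. Together 8 of 30 members did not overlap, against 16.1% of all genes.

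In tamoxifen mice, Gstk1 stood lowest in high cells. High cells differed from negative cells by -1.11 ± 0.16 (limma adjusted p = 0.000133), 2.15-fold, with all 4 high arrays (6.07 to 6.74) below all 4 negative arrays (7.39 to 7.55), and the call held when any single array was left out. In that pair 3 of 30 members were called (10.3% of all genes), with Pex7 lower and Pex11a higher in high cells. Pex7 differed by -0.79 ± 0.22 (limma adjusted p = 0.0242). The call was lost without tamoxifen high 1 (-0.54, adjusted p = 0.0749), tamoxifen high 4 (0.0565), tamoxifen negative 2 (0.0592), tamoxifen negative 3 (0.0538) or tamoxifen negative 4 (0.0712), and with only the groups compared in the fit (0.141). Pex11a differed by 0.64 ± 0.20 (limma adjusted p = 0.0426) with overlapping groups. It was not called without tamoxifen high 1 (0.0848), tamoxifen high 2 (0.47, adjusted p = 0.145), tamoxifen high 3 (0.0767), tamoxifen negative 2 (0.0569), tamoxifen negative 3 (0.0944) or tamoxifen negative 4 (0.13), nor with a trended robust prior (0.054) or only the groups compared (0.204). Tuft markers had 6 of 7 called higher in high cells (median 3.36), chief cell 6 of 10 (0.98) and mucous neck 2 of 5 (1.35). Pit markers had 5 of 5 called lower (-4.49), endocrine 7 of 8 lower (-4.01), mast cell 4 of 6 lower and 1 higher (-1.01) and parietal 3 of 12 lower and 1 higher (-0.38). Their part in the results of this pair was not tested. The count of members called was 1 without tamoxifen negative 2, 3 or 4. All genes called were then 1967, 1428 and 1933, against 2283 with all arrays. Groups were apart for 3 members, against 10.9% of all genes.

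Cat was the only member called between tamoxifen low and tamoxifen negative cells (2.24% of all genes called). It was higher in low cells by 0.54 ± 0.14 (limma adjusted p = 0.0433), 1.46-fold, with low arrays from 7.97 to 8.44 and negative arrays from 7.68 to 7.75. Among the fits leaving out 1 array, the call held only without tamoxifen low 1. Without tamoxifen low 2, 3 or 4 the adjusted p was 0.155, 0.124 and 0.0776, and without tamoxifen negative 1, 2, 3 or 4 it was 0.0707, 0.0928, 0.108 and 0.0842. The Cat call was lost as well with the sorting run as a block (0.53, limma adjusted p = 0.084), under cyclic loess (0.0651), with a trended robust prior (0.0523) and with only the groups compared (0.0969). Parietal markers had 1 of 12 called higher in low cells and 10 of 12 with a positive difference (median 0.80), chief cell 4 of 10 called higher (0.88) and mucous neck 1 of 5 higher (0.30). Endocrine markers had 5 of 8 called lower (-3.24), mast cell 4 of 6 lower (-0.95), pit 2 of 5 lower (-2.17) and tuft none (-0.25). Their part in the Cat value was not tested. Gstk1 went the other way, at -0.53 ± 0.16, and was not called. Acox3 at 0.86 ± 0.25 and Pex7 at -0.65 ± 0.22 were not called either, and 5 members did not overlap against 7.42% of all genes.

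No member was called by limma between tamoxifen high and tamoxifen low cells (3.22% of all genes called). An unadjusted limma p under 0.05 was found for 4 of 30 members, against 15.9% of all genes. No member's groups were apart (7.45% of all genes). The smallest adjusted p was 0.052, for Gstk1 at -0.58 ± 0.16. The count of members called was 1 without tamoxifen high 1, tamoxifen low 3 or tamoxifen low 4. All genes called were then 1118, 488 and 563, against 715 with all arrays. Tuft markers had 7 of 7 called higher in high cells (median 3.57), parietal 5 of 12 lower (-0.89), pit 4 of 5 lower (-2.18) and endocrine 1 of 8 lower (-1.07). Chief cell and mast cell markers had 1 called higher each (0.05 and -0.11) and mucous neck none (1.05), and their part in these values was not tested. Phyh, which separated these populations by -1.16 in control mice, differed here by -0.17 ± 0.15. No test of the change in Phyh between treatments is reported, so that change is not established. Of the 30 members, 25 had a negative difference, with a median of -0.13, against 51.9% of all genes and a median of -0.01. The largest sizes were Acox2 at -0.90 ± 0.34 and Pex16 at -0.62 ± 0.22.

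**Figure D4:**
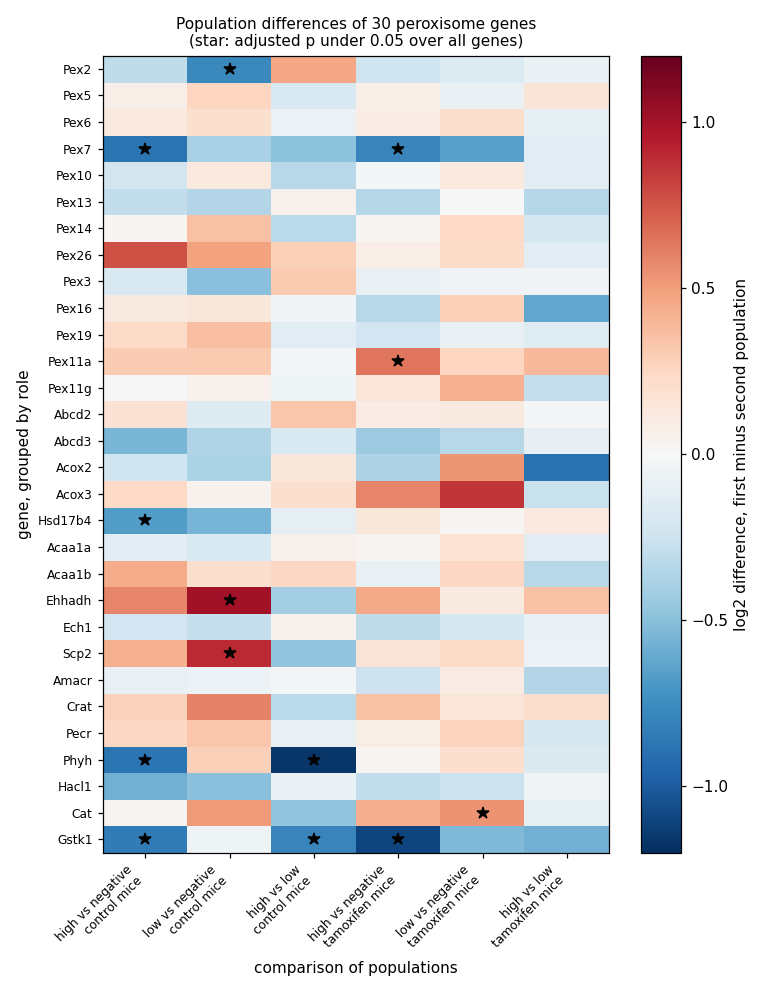
Log2 difference between populations for the 30 measured members (rows, ordered by role) in 6 comparisons (columns). Red is higher and blue lower in the first population named, and a star marks an adjusted p under 0.05 over all genes. Stars recur in the row of Gstk1 (3 comparisons), and Phyh in control high against low cells is the bluest cell at -1.16.

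Of 61 further peroxisome genes, 52 were measured. With tamoxifen 1 was called higher and 0 lower in high cells (2.73% of all genes called), 4 higher and 1 lower in low cells (8.32%), and 3 higher and 0 lower in negative cells (2.32%). Their medians were 0.05, 0.09 and 0.10, against 0.00, 0.01 and 0.00 for all genes. Idh1, the NADP-dependent isocitrate dehydrogenase of cytosol and peroxisome, rose from 8.67 to 10.36 in high cells (1.68 ± 0.26, limma adjusted p = 0.00151) and from 8.60 to 10.25 in low cells (1.65 ± 0.26, adjusted p = 0.000466). In negative cells Idh1 differed by 0.48 ± 0.26 (adjusted p = 0.494). Gdap1, a fission factor of mitochondria and peroxisomes, was at background in control negative cells and at least 1.25-fold higher with tamoxifen (limma adjusted p = 0.00259). These Idh1 and Gdap1 calls held when any single array was left out. With only the groups compared in the fit, 12 genes in all were called with tamoxifen in high cells, against 606 with all arrays. That limit applies to the high-cell calls of the lists below as well.

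The acyl-CoA synthetase Slc27a2, which activates very long-chain fatty acids, was the 1 gene of this wider list with a called difference in tamoxifen effect between populations. Group means were 5.04, 5.86 and 4.07 in control high, low and negative cells. They were 4.37, 5.34 and 5.40 with tamoxifen. Slc27a2 was at least 2.23-fold higher with tamoxifen in negative cells (limma adjusted p = 0.0193), against -0.68 in high and -0.52 in low cells, which were not called. Whether this effect depended on the population was tested with interaction terms, for which 0.248% of all genes were called for high against negative cells, 0.839% for low against negative and 0.0271% for high against low. The Slc27a2 term was called for high against negative cells (limma adjusted p = 0.047) and for low against negative cells (limma adjusted p = 0.0378). Because control negative cells were at background, the size is a bound: with that group set to the background level the terms were -1.83 and -1.68. Each call was lost in 11 of 14 fits with 1 array left out, with adjusted p up to 0.149 and 0.131, and the call in negative cells was lost in 6 of 7. With the sorting run as a block the term for low against negative cells was not called (limma adjusted p = 0.0505). Eci2 (1.12) and Far1 (0.68) were called higher and Acbd5 (-0.50) lower in low cells. Pex5l (0.75) was called higher in negative cells. With 1 array left out, Eci2, Far1 and Acbd5 were lost in 5 of 7 fits each and Pex5l in 6 of 7.

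Between populations, calls for Far1, Ephx2, Slc27a2, Gdap1, Pex5l and Crot of this list held in every fit with 1 array left out. Far1, the fatty acyl-CoA reductase that feeds ether lipid synthesis, was lower in control high than negative cells (-1.60 ± 0.21, limma adjusted p = 3.74e-05) and in control low than negative cells (-1.66, adjusted p = 4.91e-05). It was lower in tamoxifen high than negative cells as well (-1.14, limma adjusted p = 0.000299). Ephx2, the soluble epoxide hydrolase, was lower in control high than negative cells (-1.99 ± 0.42, limma adjusted p = 0.00291). Slc27a2 was at least 3.06-fold higher in control low than negative cells (limma adjusted p = 0.00204). In tamoxifen mice Gdap1 was at background in high and low cells and at least 1.25-fold lower in each than in negative cells (limma adjusted p = 0.00018 and 0.000177). Pex5l, a relative of the import receptor, was lower than in negative cells in high cells (-0.89, limma adjusted p = 0.00152) and in low cells (-0.90, adjusted p = 0.00405). Crot, the carnitine octanoyltransferase, was higher in tamoxifen high than negative cells (0.71, limma adjusted p = 0.0042). The comparisons share the negative arrays of each treatment. In counts, 3 of the 52 were higher and 5 lower in control high against negative cells (12.3% of all genes called), 1 and 1 in control low against negative (5.27%), and 0 in control high against low (1.34%). With tamoxifen they were 1 and 7 (10.3%), 0 and 4 (2.24%), and 0 (3.22%) in the same order.

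PPAR receptors and coactivators, 8 of 8 measured, had 0, 1 and 0 genes called with tamoxifen in high, low and negative cells. The shares of all genes called were 2.73%, 8.32% and 2.32%. Against negative cells, 1 was called in control high (12.3% of all genes) and 1 in control low cells (5.27%). In tamoxifen mice 2 were called in high (10.3%) and 1 in low cells (2.24%) against negative cells. Pparg (-2.02 ± 0.28, limma adjusted p = 0.000104) and Ppargc1b (-1.24, adjusted p = 0.000714) were lower in high than in negative tamoxifen cells, with Ppargc1b lower in control high cells as well (-1.02, adjusted p = 0.00797). Pparg was called lower in low than in negative cells too. With 1 array left out it differed by -1.73 to -1.34 in control mice (call lost in 1 of 6 fits). In tamoxifen mice it differed by -1.37 to -0.95 (lost in 6 of 8). With tamoxifen Pparg was 1.00 higher in low cells (limma adjusted p = 0.0471), a call lost in 6 of 7 fits with 1 array left out. Ppara differed with tamoxifen by -0.66, -0.54 and -0.43 in high, low and negative cells and was not called.

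PPARA target genes outside the peroxisome, 15 of 19 measured, had 2, 5 and 2 genes called higher with tamoxifen in high, low and negative cells and none called lower, where 2.73%, 8.32% and 2.32% of all genes were called. Their medians were 0.30, 0.36 and 0.55, against 0.00, 0.01 and 0.00 for all genes. This list, like the other gene lists, was chosen with earlier results of these data known. The tamoxifen counts, medians and p-values of these lists are therefore a description and not independent evidence. Pdk4, a kinase that restrains pyruvate oxidation, rose by 4.04 ± 0.76 in high (limma adjusted p = 0.0066), 2.97 in low (adjusted p = 0.0173) and 3.78 in negative cells (adjusted p = 0.00949). The low-cell call of Pdk4 was lost without tamoxifen low 1 or 2 or control low 1 or 3 (adjusted p 0.0583, 0.0526, 0.0729 and 0.0553). Acot1, a cytosolic acyl-CoA thioesterase, rose by 2.05 and 1.61 in high and low cells (limma adjusted p = 0.00417 and 0.00794). The lipid droplet coat gene Plin2 rose by 1.46 in low cells (limma adjusted p = 0.00415).

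Mitochondrial beta-oxidation genes, 17 of 18 measured, are shown for the other organelle that shortens fatty acids. Cpt1a, Cpt2, Slc25a20, Acaa2 and Acadm are in the PPARA target list too, so the counts of these lists are not separate. With tamoxifen 1 gene was higher in high cells, 3 were higher in low cells and 1 was lower in negative cells, again beside 2.73%, 8.32% and 2.32% of all genes. Acadl, the long-chain acyl-CoA dehydrogenase, rose by 1.84 ± 0.25 in high (limma adjusted p = 0.000389) and 1.80 in low cells (adjusted p = 0.000116). Both Acadl calls held in every fit with 1 array left out. The low-cell calls of Acads and Cpt2 were lost in 4 and 5 of 7 such fits. Decr1, the call in negative cells, was lost in 6 of 7. Control high cells had 7 of the 17 called lower and 1 higher than negative cells, with a median of -0.53, where 12.3% of all genes were called and their median was 0.04. Among them were Eci1 at -1.60, Etfa at -1.18 and Acadl at -1.54 (limma adjusted p = 0.000117, 0.000177 and 0.000423). Against control low cells, control high cells had 4 of the 17 called lower and 1 higher (median -0.31), where 1.34% of all genes were called. With 1 array left out, Acadvl and Eci1 each lost the call in 1 of 6 fits and Etfa in 3 of 6. Slc25a20, the gene called higher, lost it in 5 of 6. The marker lists that differed in these pairs, given above, stand beside these differences too, and their part was not tested.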

How the data were processed

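RNA from 21 samples of sorted corpus cells was hybridised to microarrays. The authors deposited a table of log2 signal per probe set. The submitters' processing notes name RMA, oligo, limma 3.26.8 and R 3.2.3 without saying which made the table, and the genome build is not given in the sources used here. Values ran from 0.958 to 13.55, array medians from 3.95 to 4.25, and arrays of a group correlated at 0.944 to 0.991.

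Of 41345 probe sets, 23521 were listed with exactly 1 gene, 1814 with several and 16010 were not listed. Symbols were updated by gene number for 23328. The brightest probe set by mean over the arrays stood for each of 22180 genes (1082 had more than 1, Crat and Phyh among the members), with no filter on level. Group means were fitted over all 21 arrays with limma 3.58.1 (lmFit, eBayes; 15 residual and 5.27 prior degrees of freedom) in R 4.3.3, for 12 comparisons, two-sided, with Benjamini-Hochberg adjustment over all genes and a threshold of 0.05. The script was tested on simulated data. A fold of a gene at background is given against 4.25, the background level. The number of arrays limits the precision.

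The members, gene lists, tests and alternatives were chosen with earlier results of these data known, and the promoter motifs after the values were seen. Values on every array are given for Cat, Gstk1 and members called between populations (Acox2 was added after its values were seen). From the other lists up to 3 called genes per comparison were named, each way for the peroxisome list. Alternatives were cyclic loess, averaging the probe sets of a gene, a trended robust prior, leaving out the dimmest 25% of genes, only the groups compared, blocks, and leaving out each array. Interaction terms of the members are not reported, since they consist of the contrast that chose the set.

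Sorting run numbers in the titles were checked as pairs by correlating deviations from the group means. In control mice same-run arrays correlated at 0.222 to 0.317 between high and low cells and at 0.107 to 0.233 between low and negative cells, so the numbers pair those samples. Between control high and negative cells 2 of 3 pairs exceeded 0.1 (lowest 0.0918), and with tamoxifen 3 of 10 (-0.158 to 0.412).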

Additional observations from a re-analysis of the deposited data

Results flagged for a closer look

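The lowest or highest array of each tamoxifen group was compared with its neighbours by Dixon's gap ratio for 90 combinations of member and group, and 5 stood apart, where chance gives about 1 in 20. On tamoxifen low 3, Acaa1a was 6.97 (the other arrays of the group 6.86 to 6.87), Pex11g was 6.35 (6.72 to 6.79) and Pex2 was 4.73 (5.14 to 5.22). On tamoxifen negative 4, Ehhadh was 5.81 (6.27 to 6.34) and Pex19 was 6.67 (7.15 to 7.19). The tamoxifen effect on Slc27a2 differed between populations by an interaction test, by -2.01 for high against negative cells (limma adjusted p = 0.047) and by -1.86 for low against negative cells (limma adjusted p = 0.0378). Control negative cells were below background for this gene, so these sizes are not measured exactly, and each call was lost in 11 of 14 fits with 1 array left out (adjusted p up to 0.149 and 0.131).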

How the results depend on the processing

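Counts of called members are compared here with those of the report. Cyclic loess between arrays gave 4 for tamoxifen in high cells (against 2) and 5 for control low against negative (3). It gave 6 for tamoxifen high against negative (3). Over all genes it called 711, 1213 and 2261 in these comparisons, against 606, 1168 and 2283. Fitting only the groups compared gave 0 for tamoxifen in high cells (2), 1 for control high against low (2), 1 for tamoxifen high against negative (3) and 0 for tamoxifen low against negative (1), with fewer arrays behind the spread. All genes called in these fits of only the groups compared were 12, 147, 938 and 387, against 606, 297, 2283 and 496. A trended robust prior gave 0 for tamoxifen low against negative (1), where it called 464 of all genes (496). Leaving out the dimmest 25% of genes gave 8 for tamoxifen in low cells (5) and 1 for tamoxifen high against low (0). All genes called were then 1946 (1846) and 788 (715). With the replicate number as a block, tamoxifen in low cells gave 8 (5), beside 2521 of all genes (1846). With the sorting run number as a block, tamoxifen high against low gave 1 (0), beside 964 of all genes (715). With the run block Cat in tamoxifen low against negative was 0.53 (limma adjusted p = 0.084). Acox3 was called in its place (1.06, limma adjusted p = 0.0365), beside 657 of all genes (496). The run block ended no member call in control mice. With 1 array left out, the counts were 1 to 3, 5 to 7 and 1 to 3 for tamoxifen in high, low and negative cells. They were 2 to 4, 1 to 3 and 1 to 2 for control high against negative, low against negative and high against low, and 1 to 4, 0 to 1 and 0 to 1 for the same pairs with tamoxifen. All genes called moved with the array left out as well. For tamoxifen in high cells they were 215 without control high 1 and 1702 without tamoxifen high 4, against 606. In 11 of 20 arrays the best correlation was with an array of their own run. Over 1071 alternatives for single named genes, 856 kept the call and direction, 215 lost the call and 0 turned direction. All of these differences were already called in the main fit, so no call could be gained. A turn of direction was unlikely from the start, and nothing is read from its absence.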
